A study of Mus musculus with 4 samples.

Results

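Chemoattractant receptors are G protein-coupled receptors with which myeloid cells follow soluble signals to sites of infection or injury. Here 6 of them were followed across RNA-seq libraries of mouse blood monocytes. They are Fpr1 and Fpr2, the formyl peptide receptors, C3ar1 and C5ar1, the receptors of the complement fragments C3a and C5a, Ptafr, the receptor of platelet-activating factor, and Ltb4r1, the high-affinity receptor of leukotriene B4. The genes were taken by symbol from the deposited expression table and are 6 of its 23997 rows. The set was picked because Fpr1 was higher in both RBP-J-deficient subsets, so its genotype differences are given as a description and not as a finding.

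The study sorted Ly6Clo and Ly6Chi monocytes from the blood of mice labelled RBP-Jfl/fl Lyz2-Cre, called RBP-J-deficient here, and of control mice labelled WT with the genotype Lyz2-Cre. According to the methods the genotypes were Rbpj fl/fl Lyz2 cre/cre and Rbpj+/+ Lyz2 cre/cre, and the mice were young adults matched for age and sex, so the controls carry Cre in the Lyz2 gene as well. Lyz2 drives Cre in monocytes, macrophages and neutrophils, and the deletion is therefore not limited to 1 subset. Each of the 4 groups holds 1 library, and how many mice went into each is not given in the sources used here.

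With 1 library per group there is no spread between replicates, and no difference was tested or has a replicate check. Values are FPKM, fragments counted relative to transcript length and to the mapped fragments of the library, so that genes can be compared within a library. Differences between genotypes are log2 ratios of (FPKM + 1) with the control as the denominator, where 1 is a 2-fold difference of (FPKM + 1), and they understate differences of genes with low values. The read depth is unknown, so no interval is given. Because these are bulk samples, a change in the share of cells that express a gene cannot be told apart from a change in its RNA per cell.

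The 6 receptors share a heptahelical fold and couple mainly to G proteins of the Gi class, whose βγ subunits activate phosphoinositide 3-kinase γ, phospholipase Cβ and the Rac exchange factors that drive chemotaxis. FPR1 binds N-formyl peptides, which bacteria and damaged mitochondria release, and FPR2 responds to a wider set of ligands that includes annexin A1, serum amyloid A and cathelicidin. RBP-J is the DNA-binding factor of Notch signalling and represses its targets together with co-repressors when Notch is inactive.

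Fpr1 and Fpr2 are neighbours on chromosome 17 of GRCm38 and point away from each other, with 3884 bases between their annotated starts. Fpr1 lies at 17876471 to 17883940 on the minus strand, with 2 exons. Fpr2 lies at 17887824 to 17893952 on the plus strand, and its 2 annotated transcripts have 2 and 3 exons. Because both were at least 2-fold higher in RBP-J-deficient Ly6Clo monocytes, the 250 bases before each start are printed, from RefSeq on GRCm38.p6. The Fpr1 stretch is chr17:17883940-17884189 on the minus strand, and the Fpr2 stretch is chr17:17887574-17887823 on the plus strand. Capitals mark matches to the letters TGGGAA, the core of the RBP-J motif, or GAGGAA, a core of the PU.1 motif, on either strand.
Fpr1: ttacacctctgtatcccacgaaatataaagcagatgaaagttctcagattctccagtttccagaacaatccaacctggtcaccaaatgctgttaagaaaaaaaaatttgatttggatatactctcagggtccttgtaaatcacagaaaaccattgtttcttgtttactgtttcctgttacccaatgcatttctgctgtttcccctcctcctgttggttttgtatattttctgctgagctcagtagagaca
Fpr2: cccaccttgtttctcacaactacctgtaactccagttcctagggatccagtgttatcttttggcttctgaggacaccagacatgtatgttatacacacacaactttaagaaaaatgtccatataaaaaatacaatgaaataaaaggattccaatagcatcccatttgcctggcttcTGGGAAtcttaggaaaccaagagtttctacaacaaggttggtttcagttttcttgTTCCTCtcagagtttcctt

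The Fpr2 stretch holds 1 TGGGAA, whose base nearest the start lies 69 bases upstream of it, and 1 GAGGAA on the other strand, 14 bases upstream. The Fpr1 stretch holds neither. Among the other 4 receptors no upstream stretch held TGGGAA, whereas those of Ptafr and Ltb4r1 held 1 GAGGAA each. The C5ar1 stretch, chr7:16259339-16259588 on the minus strand, precedes the RefSeq start. Most of it lies inside the GENCODE range of C5ar1, which ends at 16259540. Over 32851 mouse promoter stretches of the same length, 21.6% held TGGGAA and 23.3% held GAGGAA, so TGGGAA in 1 of 6 receptor stretches was not above its background. These are matches of letters only.

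The deleted gene bore out the labels. Rbpj had an FPKM of 2.43 in RBP-J-deficient against 8.30 in control Ly6Clo monocytes, a log2 ratio of -1.44. In the Ly6Chi libraries it was at 2.85 against 14.4, with a log2 ratio of -2.00. All 5 monocyte markers (Csf1r, Cd68, Itgam, Lyz2, Fcgr1) had an FPKM of at least 15.6 in every library. Ly6c2, the marker behind the sort, had 10.9 in control Ly6Clo and 2013 in control Ly6Chi monocytes. In RBP-J-deficient mice it had 78.3 in Ly6Clo and 1594 in Ly6Chi monocytes.

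Fpr1 had the highest genotype ratio of the 6 in both subsets with a pseudocount of 1, but with 0.1 C3ar1 was above it in Ly6Clo monocytes, at 3.09 against 2.64. Its FPKM was 59.5 in control Ly6Clo, 370.2 in RBP-J-deficient Ly6Clo, 6.82 in control Ly6Chi and 67.7 in RBP-J-deficient Ly6Chi monocytes. The RBP-J-deficient Ly6Clo library stood highest and control Ly6Chi lowest, and RBP-J-deficient Ly6Chi monocytes lay slightly above control Ly6Clo monocytes. The level was 6.22 times that of the control in Ly6Clo and 9.94 times in Ly6Chi monocytes. The log2 ratios were 2.62 and 3.14, which placed Fpr1 at rank 23 and rank 12 among the 10237 expressed genes, those that reached an FPKM of 1 in any library. Both passed the study's upper fold threshold of 5.7 on (FPKM + 1), 2.51 on the log2 scale, which 0.274% of these genes passed in Ly6Clo and 0.156% in Ly6Chi monocytes. After rescaling to TPM the Ly6Clo ratio was 2.26, and after subtraction of the trend with transcript GC content it was 2.34, both short of that threshold.

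Fpr2 was higher mainly in the Ly6Clo subset. Its FPKM was 122.0 in RBP-J-deficient against 27.8 in control Ly6Clo monocytes, and 29.4 in RBP-J-deficient against 17.3 in control Ly6Chi monocytes. The RBP-J-deficient Ly6Clo library stood far above the other 3, which lay close together. The level was 4.39 times the control in Ly6Clo, a log2 ratio of 2.10, and 1.70 times in Ly6Chi monocytes, a log2 ratio of 0.73. The annotated ranges of Fpr2 and Fpr3 overlap on the same strand, and reads could be split between these paralogs. Fpr3 had an FPKM of 0.0476 in control Ly6Clo monocytes and is listed at 0 in the other 3 libraries.

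**Figure D1:**
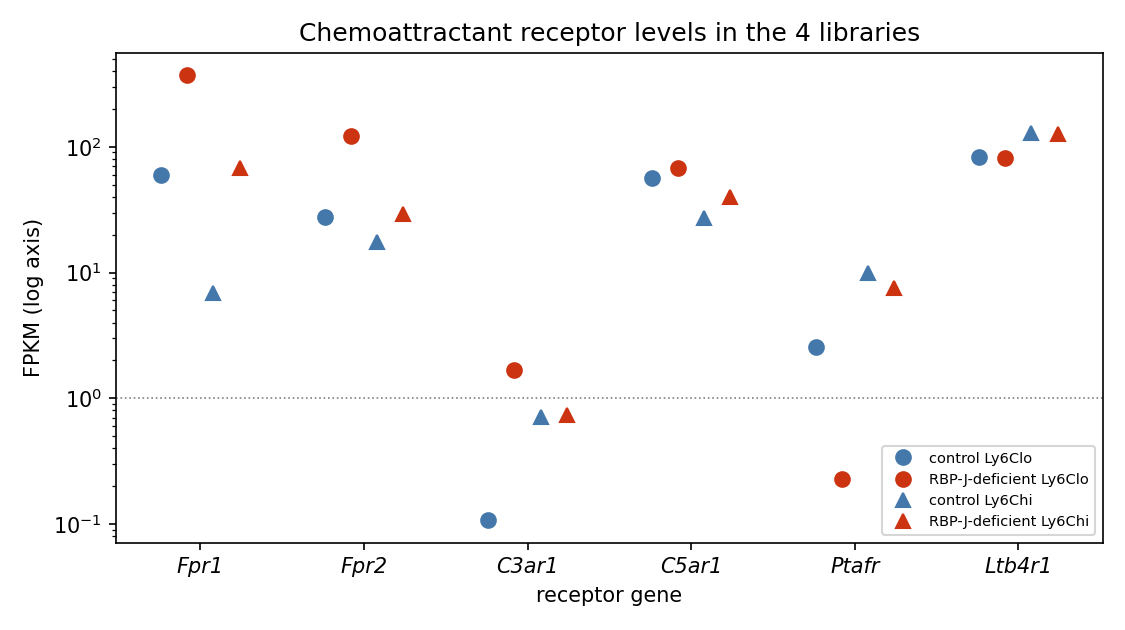
FPKM of the 6 receptor genes on a log axis, 1 point per library, with circles for Ly6Clo, triangles for Ly6Chi, blue for control and red for RBP-J-deficient monocytes; the dotted line marks an FPKM of 1. Fpr1 and Fpr2 are highest in RBP-J-deficient Ly6Clo monocytes at 370.2 and 122.0, Ltb4r1 differs by subset and not visibly by genotype, and C3ar1 is near or below the line throughout.

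The complement receptors differed less. C5ar1 (chromosome 7, 16246743 to 16259540, minus strand) had FPKM values of 56.4 in control Ly6Clo, 68.2 in RBP-J-deficient Ly6Clo, 27.0 in control Ly6Chi and 40.0 in RBP-J-deficient Ly6Chi monocytes. Both Ly6Clo libraries were above both Ly6Chi libraries, and within each subset the RBP-J-deficient library was the higher. The log2 ratios were 0.27 in Ly6Clo and 0.55 in Ly6Chi monocytes, under 2-fold, and the Ly6Clo ratio turned to -0.0844 after rescaling to TPM.

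C3ar1, on chromosome 6 from 122847138 to 122856161 on the minus strand, was close to the limit of measurement. Its FPKM was 0.107 in control Ly6Clo, 1.67 in RBP-J-deficient Ly6Clo, 0.715 in control Ly6Chi and 0.732 in RBP-J-deficient Ly6Chi monocytes. Only the RBP-J-deficient Ly6Clo library exceeded an FPKM of 1. The log2 ratio was 1.27 in Ly6Clo and 0.0144 in Ly6Chi monocytes, the latter turning to -0.0574 after rescaling to TPM and to -0.14 after subtraction of the GC trend, and with a pseudocount of 5 in place of 1 the Ly6Clo ratio was 0.38.

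The receptors of the lipid mediators did not share the direction of Fpr1. Ptafr (chromosome 4, 132564067 to 132582683, plus strand) had FPKM values of 2.57 in control Ly6Clo, 0.230 in RBP-J-deficient Ly6Clo, 9.95 in control Ly6Chi and 7.52 in RBP-J-deficient Ly6Chi monocytes. It was lowest where Fpr1 was highest, and both Ly6Chi libraries were above both Ly6Clo libraries. Its log2 ratio was -1.54 in Ly6Clo and -0.36 in Ly6Chi monocytes. With a pseudocount of 5 the Ly6Clo ratio was -0.53.

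Ltb4r1 (chromosome 14, 55765962 to 55768494, plus strand) had FPKM values of 81.8 in RBP-J-deficient against 83.5 in control Ly6Clo monocytes, and of 127.0 in RBP-J-deficient against 129.1 in control Ly6Chi monocytes. The genotypes lay close together in each subset and the Ly6Chi libraries were the higher. The log2 ratios were -0.0298 and -0.0237. The sign depended on the scaling, since after subtraction of the GC trend the ratios were 0.44 and 0.21. The transcript of Ltb4r1 was the most GC-rich of the 6, at 57.8%, against 43.0% to 50.0% for the others.

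Across the 6 receptors, 3 were at least 2-fold higher in RBP-J-deficient Ly6Clo monocytes (Fpr1, Fpr2 and C3ar1) and 1 at least 2-fold lower (Ptafr). Among all expressed genes 8.97% were at least 2-fold higher and 11.1% at least 2-fold lower in this comparison. In Ly6Chi monocytes 1 receptor, Fpr1, was at least 2-fold higher and none was 2-fold lower, where 2.63% and 4.55% of all expressed genes were. Fpr1 was the 1 receptor at least 2-fold higher in both subsets, as were 0.713% of expressed genes. The median log2 ratio over the 6 was 0.77 in Ly6Clo and 0.28 in Ly6Chi monocytes, against 0.0233 and 0.00409 over all expressed genes. Since the set was chosen on this comparison, nothing is read from these counts. All 6 receptors reached an FPKM of 1 in at least 1 library, and 4 did so in all 4 libraries, C3ar1 and Ptafr being the exceptions.

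**Figure D2:**
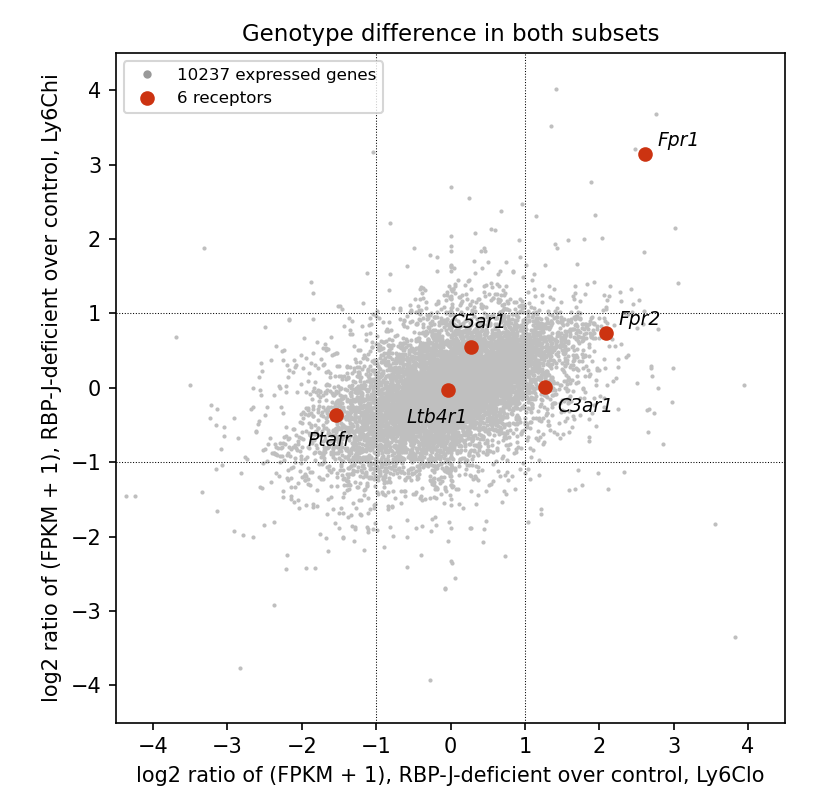
Genotype ratios on the log2(FPKM + 1) scale, RBP-J-deficient against control, in Ly6Clo (horizontal) and Ly6Chi monocytes (vertical), with the 10237 expressed genes in grey and the 6 receptors in red; dotted lines mark 2-fold differences, and 15 genes lie outside the plotted range of 4.5 either way. Fpr1 lies at 2.62 and 3.14, Fpr2 at 2.10 and 0.73, and Ptafr at -1.54 and -0.36.

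The order of the receptors within a library changed with genotype. Ltb4r1 was the most abundant of the 6 per length in both control libraries, at 83.5 in Ly6Clo and 129.1 in Ly6Chi monocytes. In RBP-J-deficient Ly6Clo monocytes Fpr1 and Fpr2, at 370.2 and 122.0, were above Ltb4r1 at 81.8. In RBP-J-deficient Ly6Chi monocytes Ltb4r1 remained first at 127.0 and Fpr1 was second at 67.7, whereas in control Ly6Chi monocytes Fpr1, at 6.82, was above C3ar1 alone. Whether neighbours in these orders differ beyond replicate error cannot be told.

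The subset contrast, which the choice of the set did not name, uses the same 4 libraries. In control mice Fpr1 and C5ar1 were at least 2-fold higher in Ly6Clo, where 5.21% of expressed genes were, and Ptafr was at least 2-fold higher in Ly6Chi monocytes, where 7.76% were. The log2 ratios of (FPKM + 1), Ly6Chi over Ly6Clo, were -2.95 for Fpr1, -1.04 for C5ar1 and 1.62 for Ptafr. The RBP-J-deficient Ly6Clo library had Fpr1 and Fpr2 at least 2-fold higher, at -2.43 and -2.01, where 8.40% of expressed genes were, and Ptafr was at least 2-fold higher in Ly6Chi monocytes, at 2.79, where 10.6% were. Fpr2 had only -0.65 in control mice. Ltb4r1 had 0.63 in RBP-J-deficient against 0.62 in control mice. The 2 subset contrasts share no library with each other, but each shares both of its libraries with the genotype contrasts.

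Levels of other cell type markers moved beside these results. All 6 Ly6Chi markers (Ly6c2, Ccr2, F13a1, Vcan, Chil3, Mmp8) were higher in RBP-J-deficient than in control Ly6Clo monocytes, and their summed FPKM was 650.6 against 109. Of 9 Ly6Clo markers 2 (Cd36, Pparg) were higher and 7 lower in the same comparison, with a summed FPKM of 2850 against 3419. The log2 ratios of the 7 ran from -0.0860 for Fcgr4, -0.12 for Cx3cr1 and -0.45 for Spn to -3.22 for Nr4a1. Nr4a1, a nuclear receptor that Ly6Clo monocytes depend on, had 65.6 against 618.2, and Ace had 17.7 against 108.7. By flow cytometry and qPCR, however, the study found similar Nr4a1 expression in Ly6Clo monocytes of both genotypes. Fpr1 and Fpr2 were lower in control Ly6Chi than in control Ly6Clo monocytes. The part of these marker differences in the receptor results was not tested. In Ly6Chi monocytes, 5 of 9 Ly6Clo markers (Spn, Treml4, Fcgr4, Cd36, Pparg) were higher with RBP-J deficiency and 4 (Nr4a1, Itgax, Cx3cr1, Ace) were lower, with a summed FPKM of 976.2 against 600.0. From its level in control Ly6Chi towards that in RBP-J-deficient Ly6Clo monocytes, RBP-J-deficient Ly6Chi monocytes covered 16.8% of the way for Fpr1, 11.6% for Fpr2 and 31.6% for C5ar1. For the 5 Ly6Clo markers at least 2-fold higher at the far end, the same share was 10.3% for Pparg, 12.0% for Cd36, 14.0% for Fcgr4, 33.5% for Spn and 45.2% for Treml4. The other 4 Ly6Clo markers, which were not 2-fold higher at the far end, have no such share. The part of Ly6Clo cells within the Ly6Chi sort in these differences was not tested.

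Neutrophils also carry FPR1 and FPR2. For bone marrow monocytes the study gives a gate positive for CD115 and negative for Ly6G. The gate of the blood sorts for sequencing is not given in the sources used here. Of 13 neutrophil markers 12 were found, and in Ly6Clo monocytes 2 were higher and 7 lower in the RBP-J-deficient library, with a summed FPKM of 169.7 against 270.2. In Ly6Chi monocytes 3 were higher and 7 lower, with sums of 1081 and 1387. S100a8 alone made up most of these sums. It had an FPKM of 197.2 and 126.1 in control and RBP-J-deficient Ly6Clo monocytes, and 1085 and 861.4 in Ly6Chi monocytes. The 2 higher in Ly6Clo monocytes were Retnlg, at 12.2 against 4.33, and Ngp, at 0.185 against 0. Csf3r, the G-CSF receptor, had an FPKM of 30.4 and 6.50 in control and RBP-J-deficient Ly6Clo monocytes, and 50.7 and 28.0 in Ly6Chi monocytes. Among the granule genes, Mpo is listed at 0 in all 4 libraries, while Camp and Ngp were at 5.52 and 4.87 in RBP-J-deficient Ly6Chi monocytes and at most 0.185 in the other 3. Of the remaining lists, the summed FPKM in the control and RBP-J-deficient Ly6Clo libraries was 26.1 and 1.81 for B cell, 121.5 and 121.1 for platelet, and 2.62 and 0.728 for dendritic cell markers. In Ly6Chi monocytes these sums were 2.44 and 3.50, 340.2 and 285.1, and 14.2 and 6.38. Eosinophil, mast cell and basophil, and T and NK cell markers summed to at most 2.04 in every library. The part of these cells in the receptor results was not tested.

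Receptors with related functions were followed in a list of 18 genes, of which 17 were found and 9 were expressed. In RBP-J-deficient Ly6Clo monocytes 4 were at least 2-fold higher and 1 lower, with a median log2 ratio of 0.79, where 8.97% of all expressed genes were higher and 11.1% lower. After subtraction of the GC trend 3 were higher, beside 7.98% of all expressed genes, and none lower. In Ly6Chi monocytes none was 2-fold higher or lower, beside 2.63% and 4.55%, with a median of -0.0130. After rescaling to TPM 2 were lower there, beside 7.74%. List members were named after their values were seen, except Ltc4s and Camp, and so were the marker genes. C5ar2, the other C5a receptor, lies next to C5ar1 on chromosome 7 and had an FPKM of 5.25 and 14.9 in control and RBP-J-deficient Ly6Clo monocytes, and of 3.45 and 7.28 in Ly6Chi monocytes. Its log2 ratios, 1.35 and 0.90, were above those of C5ar1 in both subsets. Cysltr1, a receptor of cysteinyl leukotrienes, had log2 ratios of 1.29 in Ly6Clo and -0.36 in Ly6Chi monocytes. Gpr183, an oxysterol receptor, had 1.45 and -0.0130, and Hcar2, the niacin receptor, had 1.52 and 0.21. The FPKM of Hcar2 was low, at 3.40 in RBP-J-deficient against 0.533 in control Ly6Clo monocytes. S1pr5, a sphingosine 1-phosphate receptor, was lower in Ly6Clo monocytes, with an FPKM of 54.7 in RBP-J-deficient against 115.1 in control mice and a log2 ratio of -1.06. Ltb4r2, the low-affinity leukotriene B4 receptor beside Ltb4r1, is listed at 0 in all 4 libraries.

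Genes that make or break down the ligands formed a list of 20, of which 17 were expressed. In Ly6Clo monocytes 3 were at least 2-fold higher and none lower, with a median log2 ratio of 0.00595, beside 8.97% and 11.1% of all expressed genes. After rescaling to TPM 2 were higher and 3 lower, beside 4.70% and 19.1%, and the median was -0.18. In Ly6Chi monocytes 3 were higher and 1 lower, beside 2.63% and 4.55% of all expressed genes, with a median of 0.25. Ltc4s, which makes leukotriene C4, was the 1 member at least 2-fold higher in both subsets. Its FPKM was 20.6 in RBP-J-deficient against 3.40 in control Ly6Clo monocytes, and 4.23 against 1.33 in Ly6Chi monocytes, with log2 ratios of 2.30 and 1.17. Anxa1, which encodes the FPR2 ligand annexin A1, had an FPKM of 940.7 in RBP-J-deficient against 370.5 in control Ly6Clo monocytes, a log2 ratio of 1.34. C3, the precursor of C3a, had 61.7 against 18.5, a log2 ratio of 1.68. Camp, which encodes the FPR2 ligand cathelicidin, had a log2 ratio of 2.70 in Ly6Chi monocytes, from a control library where it is listed at 0. The other Ly6Chi members of these counts were Cpd, a carboxypeptidase, at 1.19, and Lpcat1, a lysophospholipid acyltransferase, at -1.06.

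The same list holds enzymes of leukotriene B4 and platelet-activating factor. Alox5, the 5-lipoxygenase, had log2 ratios of -0.92 in Ly6Clo and -0.51 in Ly6Chi monocytes, with an FPKM of 49.4 and 25.7 in the control and RBP-J-deficient Ly6Clo libraries. Lta4h, which makes leukotriene B4, had -0.37 and 0.0582. Lpcat2, which makes platelet-activating factor, had -0.65 and 0.22, and Pla2g7, which degrades it, had 0.0772 and 0.56.

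Downstream of the receptors, all 26 listed genes of G protein and chemotaxis signalling were expressed. In Ly6Clo monocytes 1 was at least 2-fold higher in RBP-J-deficient mice and 4 lower, with a median log2 ratio of -0.18, beside 8.97% and 11.1% of all expressed genes. After rescaling to TPM 8 were lower, beside 19.1%. After subtraction of the GC trend 2 were, a step for which the share lower was not computed. In Ly6Chi monocytes none was 2-fold higher or lower, beside 2.63% and 4.55%, with a median of -0.0736. After rescaling to TPM 1 was lower there, beside 7.74%. The higher gene in Ly6Clo monocytes was Gnaq, the α subunit of Gq, at 1.72. Before rescaling, the lower genes in Ly6Clo monocytes were Prex1 and Dock2, exchange factors for Rac, at -1.31 and -1.26. Also lower in that subset were Plcb2, a phospholipase Cβ, at -1.18, and Rac1 itself at -1.02. Gnai2, the main Gi α subunit of leukocytes, had -0.27 in Ly6Clo and 0.22 in Ly6Chi monocytes. Pik3cg, the catalytic subunit of phosphoinositide 3-kinase γ, had -0.28 and -0.0564.

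Genes that end receptor signalling made up another list. Of 15 symbols listed, 13 were found and expressed, the symbols Grk2 and Grk3 being present under the older names Adrbk1 and Adrbk2. In Ly6Clo monocytes 1 was at least 2-fold higher and 2 lower, with a median log2 ratio of -0.53, beside 8.97% and 11.1% of all expressed genes. After rescaling to TPM none was higher and 5 were lower, beside 4.70% and 19.1%. In Ly6Chi monocytes none was 2-fold higher or lower, beside 2.63% and 4.55%, and the median was 0.0625, or -0.0857 after rescaling to TPM. Rgs3 and Rgs14, regulators that speed GTP hydrolysis by Gα subunits, had log2 ratios of -1.77 and -1.46 in Ly6Clo monocytes, and Rgs18 had 1.14. The β-arrestin genes Arrb1 and Arrb2 had -0.93 and -0.96 in Ly6Clo monocytes. All 6 genes of the NADPH oxidase, the superoxide-producing complex that formyl peptides trigger, were expressed and under 2-fold in both subsets. Their medians were -0.0132 in Ly6Clo and 0.12 in Ly6Chi monocytes. After rescaling to TPM they were -0.37 and -0.0316, with 1 gene at least 2-fold lower in Ly6Clo monocytes, beside 19.1% of expressed genes. After subtraction of the GC trend they were 0.15 and 0.0876, with 1 gene at least 2-fold higher in Ly6Clo monocytes, beside 7.98%.

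**Figure D3:**
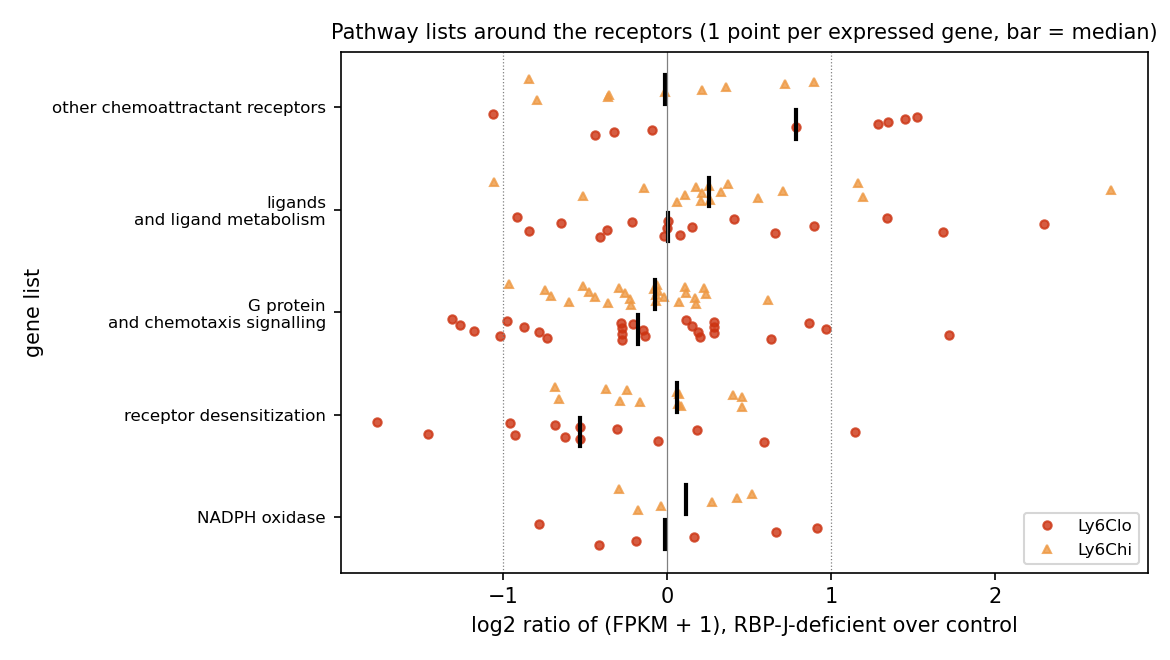
Genotype ratios on the log2(FPKM + 1) scale, RBP-J-deficient against control, for every expressed gene of 5 lists around the receptors, with red circles for Ly6Clo and orange triangles for Ly6Chi monocytes; black bars are list medians and dotted lines mark 2-fold differences. The medians of the other receptors, 0.79 in Ly6Clo and -0.0130 in Ly6Chi monocytes, lie farther apart than those of the NADPH oxidase, -0.0132 and 0.12.

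Likeness of pattern was measured as the Euclidean distance between log2(FPKM + 1) profiles over the 4 libraries, each centred on its own mean. The nearest gene to Fpr1 was Ppap2a, a lipid phosphatase, at 1.15, followed by Ear1 at 1.28, Insl6 at 1.30, Cd36 at 1.36 and Gm18853 at 1.39. Ppap2a had an FPKM of 3.64 and 16.9 in control and RBP-J-deficient Ly6Clo monocytes, and of 0.152 and 4.79 in Ly6Chi monocytes. Cd36, the scavenger receptor and a Ly6Clo marker, had 425.6 and 944.7, and 26.9 and 137.3. Among the other receptors, the nearest gene was Nup98 at 0.137 for Fpr2, Riok2 at 0.0985 for C3ar1 and Cks2 at 0.0255 for C5ar1. It was Bad at 0.44 for Ptafr and Pagr1a at 0.0538 for Ltb4r1. Between the receptors, the distance from Fpr1 was shortest to Fpr2, at 2.21, and longest to Ptafr, at 6.22. Such distances grow with the size of a gene's differences, which were large for Fpr1, so they cannot be compared between receptors. With 4 libraries they only describe the profiles.

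**Figure D4:**
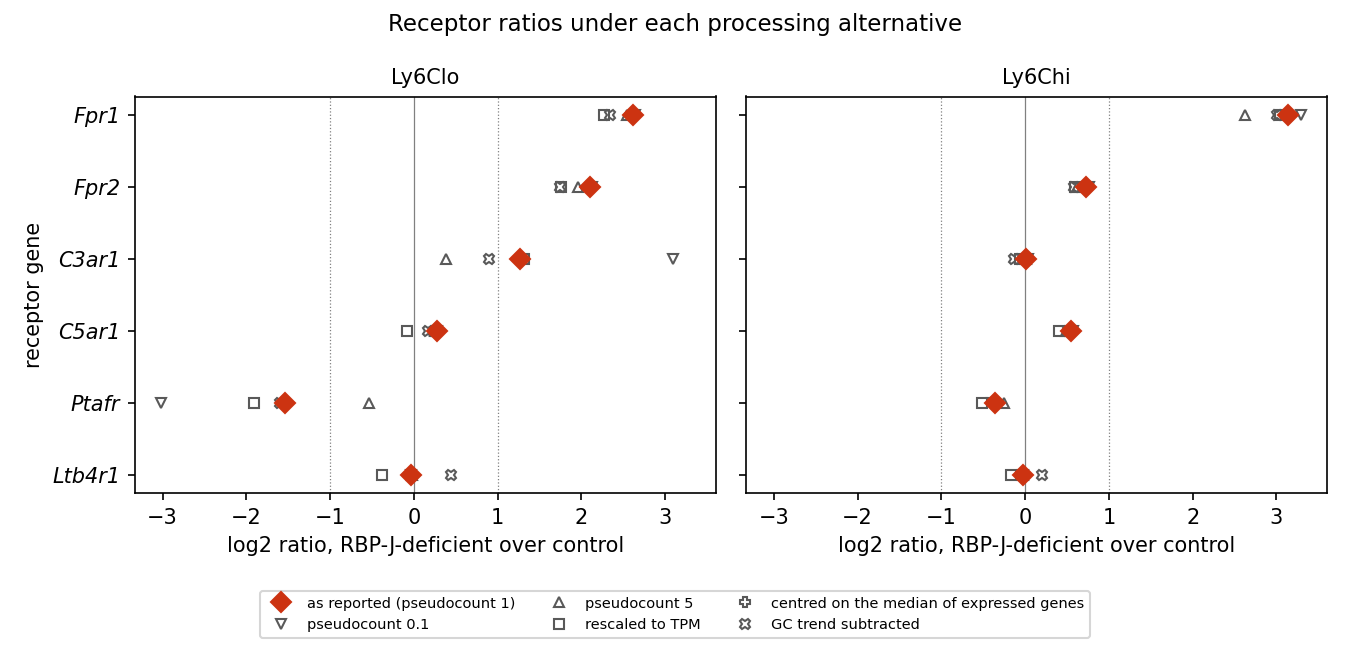
Log2 ratio, RBP-J-deficient over control, of each receptor in Ly6Clo (left) and Ly6Chi monocytes (right) as reported (red diamonds) and under 5 processing alternatives (open grey symbols); dotted lines mark 2-fold differences. Fpr1 stays between 2.26 and 2.64 in Ly6Clo and between 2.62 and 3.29 in Ly6Chi monocytes under the alternatives, whereas Ptafr and C3ar1, with the lowest levels, spread from -3.02 to -0.53 and from 0.38 to 3.09 in Ly6Clo monocytes.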

How the data were processed

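RNA-seq of sorted blood Ly6Clo and Ly6Chi monocytes was analysed in 4 libraries, 1 per genotype and subset. The authors deposited FPKM values (fragments counted relative to transcript length and library size) from paired-end HiSeq2500 sequencing in a table that lists each of the 6 pairs of libraries. The submitters' processing notes name CASAVA 1.8, TopHat2 2.1.0, Cufflinks 2.2.1 and the build mm10. Whether reads were counted by strand is not given in the sources used here. The deposited fold changes, test statistics, p-values and q-values of the same table, and an unnamed column of fold changes, are the authors' comparisons and were not used.

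Log2 ratios of (FPKM + 1) were computed from the pair of libraries compared. A total of 4 rows with failed estimates in any pair, among them Actb, and genes under an FPKM of 1 in every library were left out of the background. In 11 rows the FPKM of a library differed between pairs, none a receptor. The fold threshold of 5.7 follows the methods of the study, and 2-fold is a description. FPKM carries no counts, so no count model was used. With 1 library per group no p-value was computed and depth is unknown.

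The members, the 5 pathway lists, the 10 marker lists and the rules were chosen with earlier results of these data known. A total of 1 gene was left out of the marker lists and is not reported here. By the rule for named genes, the text gives the 6 receptors, Rbpj, list members at least 2-fold changed the same way in both subsets or 4-fold in 1, and the 5 nearest profiles to Fpr1 (3 for each other receptor, of which the first is given). Of the lists, Ltc4s and Camp met it, and the other list members and markers were named after their values were seen.

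Alternatives were a pseudocount of 0.1 or 5, rescaling to TPM, median centring, a fold threshold of 5.7, a floor of 1 FPKM in every library, and subtraction of a lowess trend (fraction 0.3, 3 iterations, over 6082 genes of mean FPKM 5 or more) on transcript GC content, taking the longest GENCODE M21 isoform. A GC content was found for 94.9% of expressed genes. The trend step was checked on simulated data. Positions are 1-based on GRCm38 from GENCODE M21, the same assembly as mm10, and upstream sequences are from RefSeq, matched by symbol for all 6 receptors. The scripts ran on Python 3.11.15 with statsmodels 0.14.6, pandas 2.3.3, numpy 2.4.6, scipy 1.17.1 and matplotlib 3.10.9.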

Additional observations from a re-analysis of the deposited data

Results flagged for a closer look

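In the results below the same contrast pointed in opposite directions in the groups compared, each group being a single library, and the difference was not tested. C3ar1 was higher in Ly6Chi than in Ly6Clo monocytes of control mice (log2 ratio 0.63) and lower in those of RBP-J-deficient mice (-0.62), at FPKM values between 0.107 and 1.67.

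The median genotype ratio of the other chemoattractant receptors was 0.79 in Ly6Clo and -0.0130 in Ly6Chi monocytes. That of the desensitization genes was -0.53 in Ly6Clo and 0.0625 in Ly6Chi monocytes, and the latter was -0.0857 after rescaling to TPM and -0.0755 after subtraction of the GC trend, so that both were then below 0. That of the NADPH oxidase genes was -0.0132 in Ly6Clo and 0.12 in Ly6Chi monocytes. This opposition was lost after rescaling to TPM, with -0.37 and -0.0316, and after subtraction of the GC trend, with 0.15 and 0.0876.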

How the results depend on the processing

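Of 122 values computed for 28 results under the alternatives, 112 stayed on the same side of a 2-fold difference, or within 1.5 times the main count, 10 did not, and no 2-fold difference changed direction. With a pseudocount of 5, the Ly6Clo genotype ratio of C3ar1 went from 1.27 to 0.38 and that of Ptafr from -1.54 to -0.53, and the control subset ratios of C5ar1 and Ptafr went to -0.94 and 0.98. With a pseudocount of 0.1, the subset ratios of C3ar1 were -1.09 in RBP-J-deficient and 1.98 in control mice, and the median Ly6Clo genotype ratio of the 6 receptors was 1.20 in place of 0.77. That median was 1.18 over the 4 receptors that reached 1 FPKM in every library. The GC correction left C3ar1 at 0.89 in Ly6Clo monocytes. At a fold threshold of 5.7, 1 receptor was higher in Ly6Clo monocytes in place of 3. The pseudocount changes act on low FPKM by construction, and the cause of the GC result was not tested. Rescaling to TPM shifted the median gene by -0.34 in Ly6Clo and -0.14 in Ly6Chi monocytes, and then 4.70% of expressed genes were at least 2-fold higher and 19.1% lower in Ly6Clo, and 2.51% and 7.74% in Ly6Chi monocytes. Under it C5ar1 in Ly6Clo monocytes had -0.0844 and Fpr1 and Fpr2 had 2.26 and 1.75. Across genes, which are not independent, Spearman's rho of the genotype ratio with GC content was -0.37 in Ly6Clo and -0.29 in Ly6Chi monocytes. The labels number no replicates, so no block by replicate was fitted, and neither was an additive model of genotype and subset over the 4 libraries. C3ar1 and Ptafr, the receptors with the lowest FPKM, are the least certain, since the depth is unknown.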
